A study of Mus musculus with 4 samples.

Results

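The glial filament and cytosolic markers are 10 genes that label astrocytes and the radial glia and neural stem cells related to them: Gfap, Vim, Nes, S100b, Fabp7, Glul, Aldoc, Acsbg1, Ndrg2 and Cd44. They were taken by gene name from the probe annotation of the arrays, control spots left out, which gave 18 probes of 41174. All 18 passed the filter on dim probes, and the 10 genes were among 23106 tested. They were measured in neurospheres, floating cultures of mouse neural stem cells kept without serum and with EGF, from Dll1 mutant lines (Dll1-3 and Dll1-5) and from wild-type mice. Dll1 encodes Delta-like 1, a membrane ligand of Notch receptors. Wild-type and mutant cells shared a background of 129/Sv mice crossed with C57BL/6, and the sources used here give neither age nor sex nor the lesion in Dll1. Each of 4 arrays carried mutant RNA in one colour and wild-type RNA in the other. A line was hybridised to 2 arrays, once in each dye orientation, from pools of 3 RNA preparations, and the sources used here do not say whether both lines were set against the same wild-type RNA. The comparison asks how far these glial markers differ in neurospheres that lack normal Dll1.

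Astrocytes hold their shape with intermediate filaments, built from GFAP in mature cells and from vimentin and nestin in stem cells and radial glia. In the cytosol they carry calcium-binding and fatty acid-binding proteins and the enzymes that recycle glutamate, break down sugar and activate fatty acids. Neural stem cells in neurospheres share many of these genes with astrocytes, so their RNA labels a glial and stem cell state and not one cell type alone.

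Each member's values are the log2 ratio of mutant to wild type, array by array, in the order Dll1-3 replicate 1, Dll1-3 replicate 2, Dll1-5 replicate 1 and Dll1-5 replicate 2. In replicate 1 the mutant RNA carried Cy5, and in replicate 2 it carried Cy3. A log2 ratio of -1 means 2-fold lower in the mutants and one of 1 means 2-fold higher. The error of a line's mean is the distance of its 2 arrays from that mean, and the error over both lines is the SD between the line means (n = 2 lines). Signals are normalised log2 signals of one probe, and are compared between mutant and wild type and not between genes. Fewer cells of a type and less RNA per cell cannot be told apart in such cultures.

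In each channel 80.0% to 82.1% of the probes exceeded background clearly by the scanner's flag. Over all genes the log2 ratios of the arrays correlated with r between 0.691 and 0.941. Dll1 itself was at -3.31, -3.22, -1.65 and -1.64, lower in mutant RNA on every array, with mutant signal above background on all 4 (limma adjusted p = 0.123). The number of arrays limits the precision, and p-values measure only the spread between these samples.

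The starts of the members' genes are shown first. Notch signalling acts through RBPJ, and astrocyte genes are known targets of STAT and NFI factors. Whether these factors bear on the members' ratios was not tested. The sequences are 300 bases from 250 before to 50 after the annotated start, from RefSeq on build GRCm38.p6. In all, 13 such promoters matched the 10 genes, since Aldoc and Ndrg2 have several starts. Capitals mark matches to TGGGAA, the core of the RBPJ motif, or to TTCNNNGAA, the STAT motif, on either strand. No RBPJ match overlapped a STAT match in these promoters. Gfap (chr11:102897151-102897450, minus strand), S100b (chr10:76253586-76253885, plus strand), the downstream start of Aldoc (chr11:78323948-78324247, plus strand), Ndrg2 (chr14:51913280-51913579, minus strand) and Cd44 (chr2:102901616-102901915, minus strand) are printed, as the defining astrocyte filament, the lower members with the biggest differences in a line and the higher member with the biggest one.
Gfap: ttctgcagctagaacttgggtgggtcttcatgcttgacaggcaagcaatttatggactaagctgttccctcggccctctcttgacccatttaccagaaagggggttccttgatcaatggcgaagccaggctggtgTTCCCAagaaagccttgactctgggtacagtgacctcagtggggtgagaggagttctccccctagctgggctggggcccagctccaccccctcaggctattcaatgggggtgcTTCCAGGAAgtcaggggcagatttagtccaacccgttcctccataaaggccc
S100b: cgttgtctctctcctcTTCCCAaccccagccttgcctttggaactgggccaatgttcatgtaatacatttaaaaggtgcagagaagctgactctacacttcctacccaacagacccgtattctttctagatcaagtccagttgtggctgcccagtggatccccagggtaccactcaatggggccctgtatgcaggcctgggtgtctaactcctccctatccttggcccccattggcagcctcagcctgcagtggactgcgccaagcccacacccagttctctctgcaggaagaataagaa
Aldoc: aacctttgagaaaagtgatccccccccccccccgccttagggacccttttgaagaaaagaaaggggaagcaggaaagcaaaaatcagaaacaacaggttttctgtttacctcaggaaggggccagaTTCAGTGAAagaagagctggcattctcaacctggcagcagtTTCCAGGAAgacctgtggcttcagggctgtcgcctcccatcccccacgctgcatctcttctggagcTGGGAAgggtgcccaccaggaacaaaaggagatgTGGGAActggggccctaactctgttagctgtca
Ndrg2: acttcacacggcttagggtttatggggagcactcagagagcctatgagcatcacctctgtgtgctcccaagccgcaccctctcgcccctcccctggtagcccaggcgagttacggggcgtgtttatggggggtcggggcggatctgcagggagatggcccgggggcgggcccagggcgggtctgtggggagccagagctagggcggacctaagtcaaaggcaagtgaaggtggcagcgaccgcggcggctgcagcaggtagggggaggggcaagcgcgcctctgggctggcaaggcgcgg
Cd44: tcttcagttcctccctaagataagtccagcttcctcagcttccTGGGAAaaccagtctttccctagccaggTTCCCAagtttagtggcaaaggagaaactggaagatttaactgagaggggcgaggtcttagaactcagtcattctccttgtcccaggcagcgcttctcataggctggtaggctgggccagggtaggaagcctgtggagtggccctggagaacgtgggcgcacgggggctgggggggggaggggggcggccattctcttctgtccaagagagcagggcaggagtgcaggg

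The RBPJ core was present in 7 of the 13 promoters, those of Gfap, S100b, Fabp7, Aldoc, Acsbg1 and Cd44, against 25.6% of 32851 promoters of the same length. The genes with a match include both members that were higher in the mutants and several that were lower. The STAT motif was present in 3 of 13, from Gfap, Aldoc and Acsbg1, against 8.3% of all. The NFI core TTGGC, also on either strand, was in 8 of 13 promoters, from 7 genes, against 46.7% of all. In Gfap the STAT match began 2 bases before the annotated start, and the downstream Aldoc promoter held 2 STAT and 2 RBPJ matches. The upstream Aldoc promoter, not printed, held 1 RBPJ match, 1 NFI core and no STAT match. The printed Ndrg2 promoter held none of the 3 motifs, and each of its other 2 annotated starts held 1 NFI core. Such matches are short strings and were not tested for binding, and the median GC content was 58.0% in the members' promoters and 52.7% in all.

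Over both lines, 7 members were lower in mutant RNA on all 4 arrays, 2 were higher on all 4, and Fabp7 was lower in one line and higher in the other. The lower ones were Ndrg2, Aldoc, S100b, Glul, Nes, Gfap and Vim, with means from -2.28 to -0.45, and the higher ones were Cd44 at 1.60 and Acsbg1 at 0.78; with median centring in place of loess, Vim and Fabp7 turned to 0.12 and 0.32 over both lines. Among all genes measured on every array, 26% were lower and 24.1% higher on all 4. The median log2 ratio of the 10 members was -0.63, against 0.01 over all genes, and their median absolute ratio was 0.91, against 0.19. By line the members' median was -0.79 in Dll1-3 and -0.41 in Dll1-5, where all genes had medians of 0.00 each.

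No member passed the adjusted threshold of 0.05 in limma's test of both line means against 0, and no gene of the 23106 did, a background of 0%. Adjusted p ran from 0.0755 to 0.673 in the members, and 0.0755 was also the smallest of any gene. At an unadjusted p under 0.05 the lower members were Ndrg2, Glul, Aldoc and Vim, 4 of 10 against 15.5% of all genes. On the higher side they were Cd44 and Acsbg1, 2 of 10 against 12%. Leaving out Dll1-3 replicate 1 or Dll1-5 replicate 2 brought Ndrg2, Glul and Cd44 under 0.05, with 1678 and 1645 genes called, and leaving out either other array called none. With the 4 arrays as separate samples 7 members were called lower against 18.6% of genes and 2 higher against 15.1%, and with lines as random blocks 5 lower against 15.9% and 2 higher against 13%. With the replicate number as a block, 6 members were called: Vim, Glul, Aldoc and Ndrg2 lower against 16.4% of genes, and Acsbg1 and Cd44 higher against 12.8%.

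**Figure D1:**
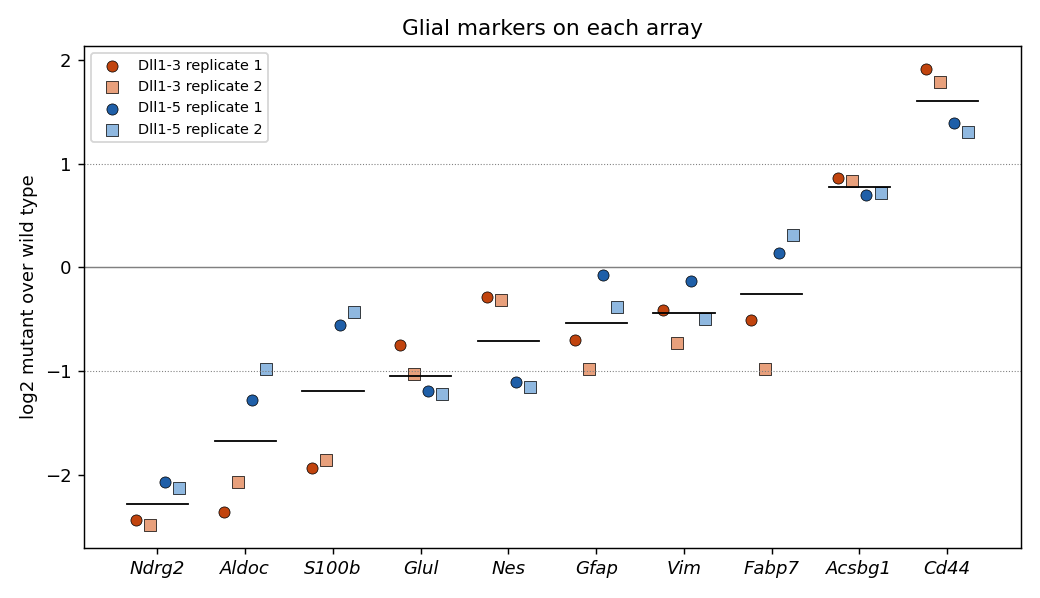
Log2 ratio of mutant over wild type (vertical axis) for the probe used for each of the 10 genes, ordered by the mean of both lines; circles are replicate 1 and squares replicate 2 of Dll1-3 (red) and Dll1-5 (blue), black bars are means of both lines, and dotted lines mark 2-fold. Ndrg2 lies below -2 and Cd44 above 1 on all 4 arrays, while S100b, Aldoc and Nes separate by line and Fabp7 crosses 0.

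The intermediate filament genes come first, and by the probe used for each, all 3 were lower on every array in the main setting. Gfap, the filament protein that defines astrocytes, was close to the detection limit in these cultures. Its 3 probes gave scanner signals of 74.6 to 190, where the negative control spots of the channels had medians between 71.1 and 88.7. Wild-type signal was above the 95th percentile of the negative controls on all 4 arrays for each of the 3 probes, and mutant signal was on 1 or 2 of 4. The normalised log2 signal of the brightest Gfap probe was 6.77, 7.14, 6.92 and 7.10 in wild type and 6.07, 6.16, 6.84 and 6.72 in mutant RNA, so the mutant value of Dll1-5 replicate 1 overlapped the wild-type range and the other 3 lay below it.

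The Gfap log2 ratio was -0.70 and -0.98 in Dll1-3 and -0.08 and -0.39 in Dll1-5, averaging -0.54 (SD 0.43, n = 2 lines; limma adjusted p = 0.251). Both Dll1-3 arrays lay below both Dll1-5 arrays, but the mutant signal of this probe did not exceed the 95th percentile of the negative controls on either Dll1-3 array, so the size of that line's ratio rests on a bound. A second probe gave -0.53, -0.71, -0.41 and -0.72, lower on every array and about equal in the lines. The third, whose annotated position spans 2450 bases, gave -0.12, -0.23, -0.28 and 0.06. Of the 3 probes it was the only one whose annotation names the RefSeq transcript. It was also the only one well above background in both channels on all 4 arrays. The size depends on the background correction at this signal: the Dll1-3 mean was -1.60 with a normexp offset of 10 and -2.76 with the scanner software's ratios, and -0.18 where only probes above background everywhere were kept, which moves to the third probe. The used probe lies on chromosome 11 from 102711589 to 102711648.

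Vim encodes vimentin, the filament protein of radial glia, stem cells and many mesenchymal cells. The log2 signal of its bright probe was 15.14, 15.24, 15.09 and 15.14 in wild type and 14.73, 14.51, 14.96 and 14.63 in mutant RNA, so after normalisation every mutant value was below every wild-type value. The ratio was -0.41, -0.73, -0.14 and -0.50, a mean of -0.45 (SD 0.18, n = 2 lines; limma adjusted p = 0.147), or 1.49-fold and 1.25-fold lower in Dll1-3 and Dll1-5. This direction came with loess, which follows intensity: with each array only centred on its median, Vim was at 0.12 over both lines, 0.14 in Dll1-3 and 0.10 in Dll1-5. Replicate 1 was less negative than replicate 2 in both lines. A second Vim probe, 5466 bases away, was as dim as the negative controls, at 0.94 to 1.44 times their median. Its wild-type signal was not well above background on any array, so its ratios of -0.01, -0.03, 0.53 and 0.23 rest on a bound. The used probe lies on chromosome 2 from 13498615 to 13498674.

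Nes encodes nestin, the filament protein used as a marker of neural stem and progenitor cells. Its signal on the log2 scale was 12.94, 12.77, 12.81 and 12.68 in wild type and 12.65, 12.46, 11.71 and 11.52 in mutant RNA. The Dll1-5 mutants thus stood more than a log2 unit below the wild type of their own array, and the Dll1-3 mutants lay just under the wild-type range. The ratio was -0.28 and -0.31 in Dll1-3 and -1.11 and -1.15 in Dll1-5, with line means of -0.30 ± 0.01 and -1.13 ± 0.02, or -0.71 over both (SD 0.59, n = 2 lines; limma adjusted p = 0.249). Wild type exceeded mutant 1.23-fold in Dll1-3 and 2.19-fold in Dll1-5. With median centring the Dll1-3 mean turned to 0.20, while Dll1-5 was at -0.94. The probe lies on chromosome 3 from 87724115 to 87724174.

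**Figure D2:**
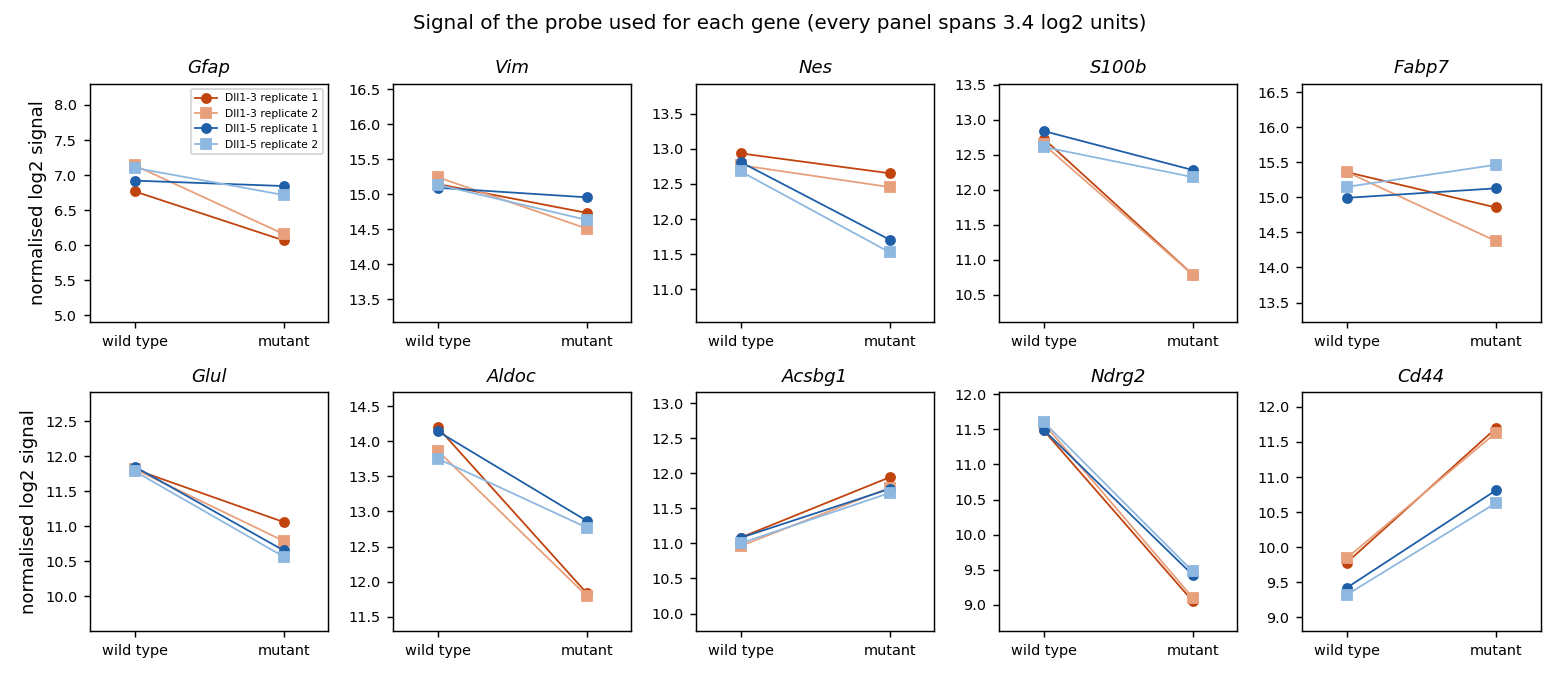
Normalised log2 signal (vertical axis) of the probe used for each gene in wild-type and mutant RNA; each line joins the 2 channels of one array, with colours and symbols for line and replicate as in the key, and every panel spans the same number of log2 units. Mutant points of the 2 lines overlap only for Vim, and those of S100b, Aldoc, Nes, Fabp7 and Cd44 separate widely; levels are not comparable between panels.

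S100b and Fabp7 encode small cytosolic binding proteins. S100b, a calcium-binding protein of astrocytes that they also release, had log2 signals of 12.73, 12.65, 12.84 and 12.61 in wild type and of 10.79, 10.79, 12.28 and 12.18 in mutant RNA. All mutant values were below all wild-type values, and the Dll1-3 mutants were far below the Dll1-5 mutants. The ratio was -1.94 and -1.86 in Dll1-3 and -0.56 and -0.43 in Dll1-5, or 3.73-fold and 1.41-fold lower by line. Both lines together gave -1.20 (SD 0.99, n = 2 lines; limma adjusted p = 0.244). The probe lies on chromosome 10 from 76361705 to 76361764.

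Fabp7, the brain fatty acid-binding protein of radial glia, was the 1 member with opposite signs in the lines. In wild type its log2 signal was 15.36, 15.36, 14.99 and 15.15, and in mutant RNA it was 14.86, 14.38, 15.13 and 15.46, so the groups overlapped. The ratio was -0.50 and -0.98 in Dll1-3 and 0.14 and 0.31 in Dll1-5, line means of -0.74 ± 0.24 and 0.22 ± 0.09. Over both lines it was at -0.26 (SD 0.69, n = 2 lines; limma adjusted p = 0.673). The mutant spot was saturated on 1 array, Dll1-5 replicate 1, so the ratio there and the Dll1-5 mean are lower bounds. With median centring the mean over both lines turned to 0.32, with -0.02 in Dll1-3 and 0.66 in Dll1-5. The probe lies on chromosome 10 from 58054330 to 58054389.

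Of the 3 metabolic enzymes, Aldoc and Glul were lower in the mutants and Acsbg1 was higher. Aldoc encodes aldolase C, the brain form of a glycolytic enzyme and a marker of astrocytes. The probe used had log2 signals of 14.20, 13.87, 14.14 and 13.75 in wild type and of 11.84, 11.80, 12.87 and 12.77 in mutant RNA, with no overlap. The ratio was -2.36, -2.07, -1.28 and -0.98, or 4.65-fold lower in Dll1-3 and 2.19-fold in Dll1-5, a mean of -1.67 (SD 0.77, n = 2 lines; limma adjusted p = 0.123). Its second probe gave -2.46, -2.37, -1.62 and -1.49 and thus the same order of lines. The used probe lies on chromosome 11 from 78052122 to 78052181.

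Glul encodes glutamine synthetase, with which astrocytes turn glutamate into glutamine. Its log2 signal was 11.81, 11.82, 11.85 and 11.79 in wild type and 11.06, 10.79, 10.66 and 10.57 in mutant RNA, so wild type was tight and the mutants lay below it. The ratio was -0.75, -1.03, -1.20 and -1.22, or 1.85-fold lower in Dll1-3 and 2.31-fold in Dll1-5, a mean of -1.05 (SD 0.23, n = 2 lines; limma adjusted p = 0.0789). Its other 2 probes did not share this. They were dim, at 1.59 to 4.08 times the negative control median, lay 965 and 4984 bases away, and gave 0.01, -0.00, -0.11 and -0.11 for one and 0.53, 0.49, -0.20 and -0.17 for the other. With the mean of all 3 probes Glul was at -0.31. The used probe, whose annotation names the RefSeq transcript where those of the other 2 do not, lies on chromosome 1 from 153793544 to 153793603.

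Acsbg1 encodes an acyl-CoA synthetase that activates long-chain fatty acids and is used as an astrocyte marker. Unlike the other enzymes it was higher in the mutants: its log2 signal was between 10.96 and 11.08 in wild type and 11.94, 11.80, 11.78 and 11.72 in mutant RNA, with no overlap. The ratio was 0.86, 0.83, 0.70 and 0.72, or 1.80-fold higher in Dll1-3 and 1.63-fold in Dll1-5. Over both lines it averaged 0.78 (SD 0.10, n = 2 lines; limma adjusted p = 0.0788), with the smallest SD between the lines of the 10 members. The probe lies on chromosome 9 from 54722713 to 54722772.

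Ndrg2, a cytosolic protein of astrocytes from the N-myc downstream-regulated family, had the lowest ratio of the members over both lines. Its log2 signal was 11.49, 11.58, 11.49 and 11.61 in wild type and 9.05, 9.10, 9.42 and 9.48 in mutant RNA, more than 2 log2 units apart on every array. The ratio was -2.44, -2.48, -2.07 and -2.13, or 5.50-fold lower in Dll1-3 and 4.28-fold in Dll1-5, a mean of -2.28 (SD 0.26, n = 2 lines; limma adjusted p = 0.0755). It was the only member at least 2-fold lower on all 4 arrays, as were 2.75% of all genes, although without Dll1-3 replicate 1 Glul joined it and without Dll1-5 replicate 2 Aldoc did. The limma adjusted p of Ndrg2 was 0.0389 with an offset of 10 and 0.0475 with the scanner software's ratios, settings that called 993 and 331 genes. It was 0.0779 without background correction, 0.0868 with median centring and 0.103 with the deposited table, where no gene was called. The probe lies on chromosome 14 from 46999987 to 47000046.

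Cd44, the cell-surface receptor for hyaluronan found on reactive astrocytes and astrocyte precursors, was the member with the highest ratio. Its log2 signal was 9.78, 9.84, 9.42 and 9.32 in wild type and 11.69, 11.63, 10.81 and 10.63 in mutant RNA, with no overlap between the groups. Both mutant and wild-type signal was higher on the Dll1-3 arrays than on the Dll1-5 arrays. The ratio was 1.91, 1.79, 1.39 and 1.31, or 3.61-fold higher in Dll1-3 and 2.55-fold in Dll1-5, a mean of 1.60 (SD 0.35, n = 2 lines; limma adjusted p = 0.0782). It was the only member at least 2-fold higher on all 4 arrays, as were 1.69% of all genes. The used probe lies on chromosome 2 from 102517505 to 102517564.

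A second Cd44 probe gave 2.10, 2.11, 1.40 and 1.41, with the same order of lines. The third, 21513 bases away and at 1.11 to 1.62 times the negative control median, gave 0.04, -0.01, 0.13 and -0.11, and its annotation names 2 of the 3 RefSeq transcripts that the other probes name. With the mean of the 3 probes Cd44 was at 1.12, and it was then no longer 2-fold on every array. The sources used here name no genome build for these probe coordinates, so exons and untranslated regions were not assigned.

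**Figure D3:**
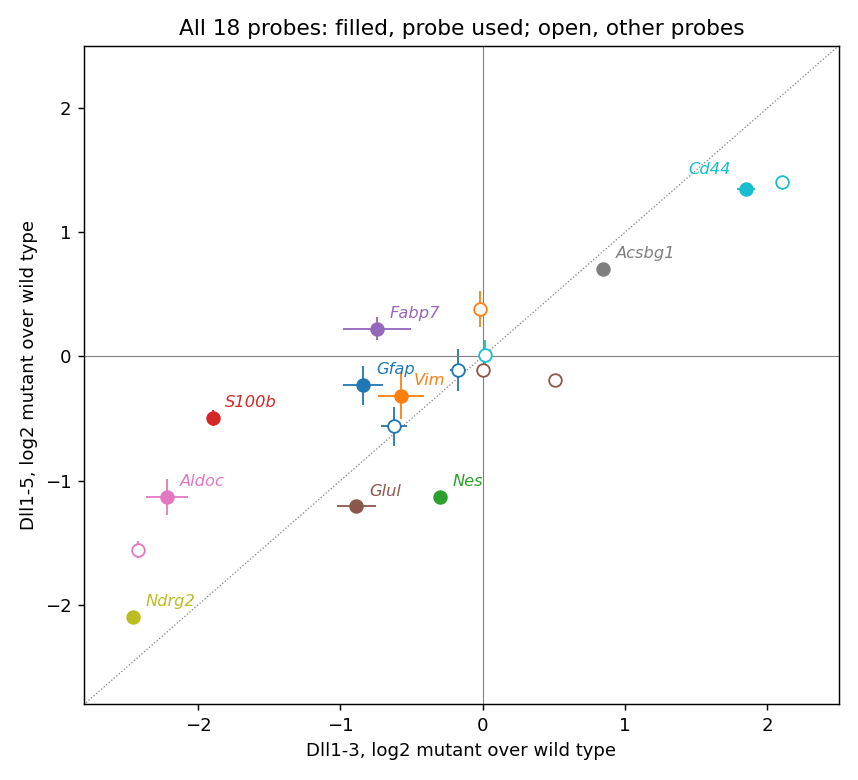
Mean log2 ratio of mutant over wild type in Dll1-3 (horizontal) and Dll1-5 (vertical) for all 18 probes; filled circles are the probe used for each gene, open circles of the same colour its other probes, and bars the distance of the 2 arrays from their mean. Points off the dotted diagonal differ between the lines, S100b most, and the open circles near the centre are the dim probes of Gfap, Vim, Glul and Cd44.

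Within single lines, S100b, Aldoc and Ndrg2 were at least 2-fold lower on both Dll1-3 arrays, 3 of 10 against 6.1% of all genes. In Dll1-5 they were Nes, Glul and Ndrg2, also 3 of 10, against 3.69%. Ndrg2 was the member common to both lines. Cd44 was 2-fold higher on both arrays of each line, against 4.46% of genes in Dll1-3 and 3.01% in Dll1-5. A single line had no test, since its 2 arrays were read as a dye swap.

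Between the lines, both arrays of Dll1-5 lay above both of Dll1-3 for Gfap, S100b, Fabp7, Aldoc and Ndrg2, 5 members against 28.8% of genes. They lay below for Nes, Glul, Acsbg1 and Cd44, 4 members against 24.5%, and Vim overlapped. Among members with no saturated spot S100b had the biggest gap, 1.41 log2 units less negative in Dll1-5. Aldoc had a gap of 1.09, and Fabp7 of 0.97 or more, since its mutant spot was saturated on 1 Dll1-5 array. Nes was 0.83 units more negative in Dll1-5, and Cd44 0.50 units less high there. So Nes, Glul, Acsbg1 and Cd44 had their lower ratios in Dll1-5, and S100b, Aldoc, Ndrg2, Fabp7 and Gfap had theirs in Dll1-3. For Gfap this holds for the probe used, and the arrays of its other probes overlapped between the lines. With the 4 arrays taken as separate samples in limma, the adjusted p of the difference was 0.00225 for S100b, 0.00583 for Nes, 0.0107 for Aldoc and 0.0299 for Cd44, and it was also under 0.05 for Fabp7. Of all genes, 8.61% were called lower and 9.65% higher in Dll1-5 in that fit. This fit takes the dye-swapped arrays as independent, and where they share pools its p-values are too small. With the replicate number as a block the difference was called for all members but Acsbg1, with 17.9% of genes called lower and 21.9% higher. With median centring 1 member had its lines apart, where loess gave 9. The share over all genes was not computed with median centring, so this drop cannot be read as particular to the members.

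The members' own families were set beside them, as 27 tested paralogs of 30 listed, the intermediate filaments, S100 proteins, fatty acid-binding proteins, aldolases, acyl-CoA synthetases and NDRG genes. Of these, 7 were lower and 11 higher on all 4 arrays, with a median of 0.02 (-0.01 with median centring), and none passed the adjusted threshold (limma, 6 lower and 4 higher at an unadjusted p under 0.05). Ndrg1, a hypoxia-responsive relative of Ndrg2, had ratios of 3.38 and 3.90 in Dll1-3 and of 1.12 and 1.08 in Dll1-5, with wild-type signal well above background on 2 of 4 arrays. S100a13, an S100 protein, was at 2.30 and 1.51. Prph, the filament protein peripherin of peripheral neurons, was at 0.32 and 2.40. Other relatives shared the sign of Ndrg2 and S100b: S100a16 was at -1.18 and Ndrg4 at -0.96 over both lines (its other probe at 0.05), both named after their values were seen.

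Other astrocyte markers, transporters, channels and secreted proteins outside the 10 members, were lower in most cases. Of 33 tested of 34 listed, 26 were lower and 3 higher on all 4 arrays, and 17 were at least 2-fold lower on every array, against 2.75% of all genes, with a median of -1.43. At an unadjusted p under 0.05 they counted 25 lower and 1 higher, and at the adjusted threshold none (limma). Agt, angiotensinogen, was at -5.02 in Dll1-3 and -4.44 in Dll1-5. Ttyh1, a glial membrane protein, was at -4.83 and -3.58, with its other probes between -2.06 and -0.07. Cpe, carboxypeptidase E, was at -4.88 and -3.38, and its other probe at -3.04. With median centring 8 of the 33 were 2-fold lower on every array and the list's median was -1.09, while the count over all genes went from 630 to 266. The list's summed signal, the sum of the linear normalised signals of its probes on an array, was 374097 to 471237 in wild type and 86218 to 115254 in mutant RNA. The wild-type sum is a lower bound, since Apoe and Sparcl1 were saturated in wild type on 2 arrays each.

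Regulators of glial filament genes, the gp130 cytokine and STAT pathway, BMP receptors and SMADs, NFI factors and Sox9, counted 12 lower and 5 higher on all arrays, of 25 with a value on each. Their median was -0.26 over 26 genes, or -0.14 with median centring, where 3 were lower and 5 higher on all arrays. None passed the adjusted threshold, and 9 lower and 5 higher had an unadjusted p under 0.05 (limma). Sox9, a transcription factor of glial fate, was at -2.78 in Dll1-3 and -1.90 in Dll1-5. Its other 2 probes gave -0.32 and -2.40. Lifr, the receptor of leukaemia inhibitory factor, was at 1.60 and 1.16, with its other 4 probes between 0.01 and 0.46. Bmpr1b, a BMP receptor, was at -1.79 and -1.72, but mutant signal was well above background on only 1 of 4 arrays.

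Genes that act with CD44, its cytoskeletal linkers, the hyaluronan enzymes and its ligands, lay on both sides of 0. Of 15 tested, 2 were lower and 4 higher on all 4 arrays, with a median of 0.02 (limma, no gene at the adjusted threshold, 0 lower and 2 higher at an unadjusted p under 0.05). Spp1, osteopontin, a secreted ligand of CD44, was at 3.34 in Dll1-3 and 2.60 in Dll1-5. Hmmr, a hyaluronan-binding protein of the mitotic spindle, was at 1.82 and 0.75. Ank3, a membrane-cytoskeleton adaptor, was at 1.25 and 0.29, and its other probe at 0.38.

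**Figure D4:**
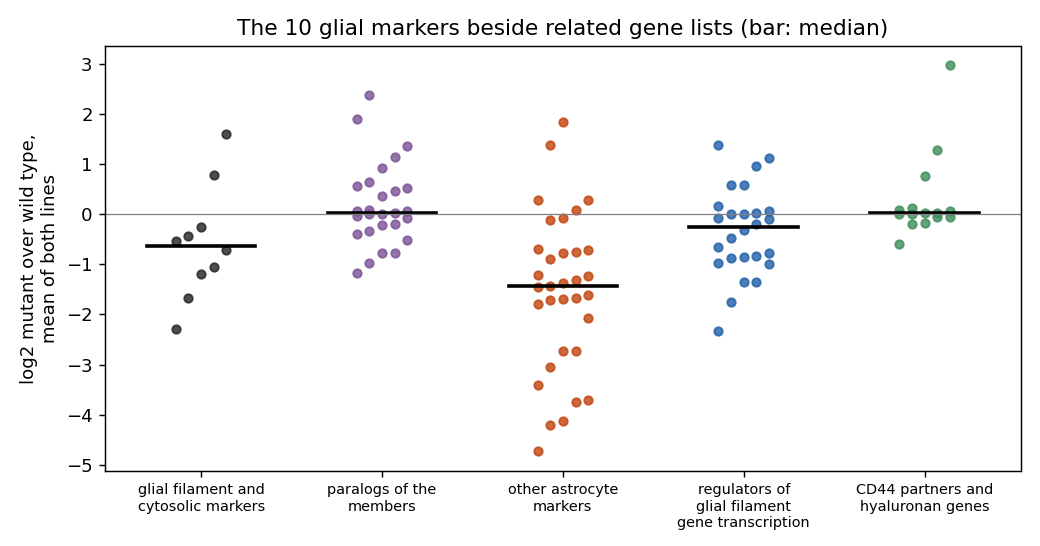
Mean log2 ratio of mutant over wild type over both lines (vertical axis) for the 10 glial markers and for the tested genes of 4 related lists; each point is a gene and the black bar the list's median. The members' median is -0.63 and that of the other astrocyte markers -1.43, whereas paralogs and CD44 partners centre on 0.02.

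Markers of other cell types differed in part too, and their part in these results was not tested. Of 12 neuronal markers, 6 were lower and 2 higher on all 4 arrays, with a median of -0.10 and a summed signal of 15313 to 15880 in wild type and 3530 to 6649 in mutant RNA. A sum is weighted towards bright probes, so it can fall through a few genes where the median is near 0. Map2, a dendritic microtubule protein, was at -1.99, with its other probes between -1.43 and -0.23. Dcx, of migrating neurons, was at -1.74, with its other probe at -0.01. Of 12 oligodendrocyte lineage markers, 5 were lower and 1 higher, with a summed signal of 44715 to 47747 in wild type and 20672 to 38306 in mutants. Gpr17, of early oligodendrocytes, was at -4.08, with its other probe at 0.02, and the proteoglycan gene Cspg4 stood at 2.59, where its other 2 probes gave 1.42 and 0.25. All 3 tested ependymal markers of 6 listed were lower on every array, with Foxj1, the factor of motile cilia, at -1.74. Dynlrb2 was at -1.25 and its other probe at -0.93. The summed signal of these markers was 1576 to 1632 in wild type and 555 to 767 in mutant RNA.

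Markers of microglia and blood, 8 tested of 10 listed, had a median of 0.04 and a summed signal of 708 to 740 in wild type and 704 to 736 in mutant RNA. That is low for 8 probes, since each signal includes the offset of 50, which pulls ratios of dim probes towards 0. By the scanner's flag 5 of the 8 were well above background in both groups on all 4 arrays. Values near 0 at this level cannot show whether such RNA differed. Of these markers, 1 was lower on all 4 arrays, P2ry12, whose mutant signal was not well above background on any array. Itgam and Hbb-b1 were not tested. Endothelial, mural and fibroblast markers, 11 tested of 12, had a median of 0.04, with 2 lower and 3 higher on all arrays and a summed signal of 6201 to 6421 in wild type and 3939 to 4228 in mutant RNA. The 2 lower ones were Kdr, a VEGF receptor, at -0.33 and Acta2, smooth muscle actin, at -0.82. The other 3 probes of Acta2 were at -0.00, 0.10 and -0.12. Here too the sum is weighted towards bright probes, and its fall does not describe most genes of the list.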

How the data were processed

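RNA of neurospheres was hybridised to 4 Agilent arrays of 2 colours and 60-base probes. The authors' scan files give spot intensity values, which Agilent Feature Extraction (version 8.1.1.1, per the submitters' processing notes) had read from the scans. The files also hold log10 ratios of the scanner software, per the file headers, and a deposited log10 file of values served as an alternative only. That file ran as wild type over mutant: with its sign turned, it correlated with the scanner ratios at r = 0.962, 0.956, 0.954 and 0.956 on the 4 arrays and its column medians were 0.03, -0.01, 0.02 and -0.01. The sources used here do not say how it was centred. The other deposited columns, such as flags and probe annotation, served for filters and names, per the file headers.

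In limma 3.58.1 (R 4.3.3, with the package data.table at 1.17.8), background was corrected by normexp (offset 50, which compresses ratios of dim probes) and arrays were normalised by loess (span 0.3), with control and outlier spots at weight 0 and then left out. Signals are channel values after Aquantile. The filter kept the 34447 of 41174 probes that at least one line's 2 arrays both flagged well above background in the mutant or the wild-type channel, and a gene took its passing probe of highest mean intensity. RefSeq GRCm38.p6 named 13748 genes through an accession, 2477 through the symbol and 1361 through a synonym, and 5521 kept the array's name. Each line's 2 arrays were averaged, and the 2 line means were tested against 0 (lmFit, then eBayes, with 1 residual and 1.64 prior degrees of freedom; Benjamini-Hochberg over 23106 genes), after the script was tested on simulated data. Ratios carry no spread among the wild-type pools, and the labels leave unsettled whether the arrays of one line shared their pools.

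The replicate number is the dye orientation and so marks a shared technical condition: deviations from the line means correlated between lines at r = 0.70 (1 value, since the 2 deviations of a line mirror each other). The named genes were all 10 members and, from each related list, up to 3 (cell type lists, up to 2) with the biggest mean among those of one sign on all arrays. The members and lists were chosen with earlier results of these data known. Alternatives covered background correction, offset, scaling, filters, probe choice, arrays left out, blocks and moderation.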

Additional observations from a re-analysis of the deposited data

Results flagged for a closer look

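For 3 probes of the members, every array of one line lay on the opposite side of 0 from every array of the other. Fabp7 was lower on both Dll1-3 arrays and higher on both Dll1-5 arrays, a gap of 0.97 log2 units or more, since the mutant spot was saturated on Dll1-5 replicate 1; this difference was not tested in the main design. The dim second Vim probe was at -0.01 and -0.03 in Dll1-3 and 0.53 and 0.23 in Dll1-5, a gap of 0.40, with mutant signal well above background on 2 of 4 arrays and wild-type signal on none. It thus passed the filter only through the mutant signal of 1 line, and its ratios rest on a bound. The Glul probe 4984 bases from the one used, also dim, was higher in Dll1-3 and lower in Dll1-5, a gap of -0.70. The difference was not tested for these 2 probes. The brighter Vim and Glul probes had one sign on all 4 arrays.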

How the results depend on the processing

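The median of the members, -0.63, lay between -0.90 and -0.37 under all its alternatives and between -0.67 and -0.58 with an array left out. Over both lines, 145 of 180 values of members kept direction and side of the threshold under 18 settings, 33 passed it only in the alternative, and 2 changed sign. With median centring in place of loess, Vim turned to 0.12 (0.14 in Dll1-3, 0.10 in Dll1-5), Nes in Dll1-3 to 0.20 and Fabp7 to 0.32; with the mean of all passing probes Vim in Dll1-5 turned to 0.031. The cause was not tested. Genes called, 0 in the main test, numbered 993 with an offset of 10, 331 with scanner ratios, 1227 with a trended robust prior, 7728 with the 4 arrays as samples and 6613 where lines entered as random blocks. Members called, also 0, then numbered 2, 1, 2, 9 and 7. With the replicate block (4 arrays), 6683 genes and 6 members were called, and the main test with an array left out called 0 to 1678 genes and 0 to 3 members; a line left with 1 array is assumed to vary like the other. Members 2-fold lower on every array, 1 in the main setting, were 2 with an offset of 10, scanner ratios, the deposited table or the mean of probes, 3 at 1.5-fold, and 1 to 2 with an array left out; over all genes that count was 630 in the main setting, then 850, 1114, 1100, 456 and 1493, and 266 with median centring. Those 2-fold higher, 1, were 0 with median centring, the mean of probes or a 3-fold limit, 2 at 1.5-fold, and 1 to 1 with an array left out, where all genes counted 388 in the main setting, then 118, 299, 88 and 1136. Members with their lines apart, 9, were 1 with median centring, 5 called by the 4-array fit, and 9 to 10 with an array left out. The share over all genes was not computed with median centring or with an array left out. The arrays limit what can be said of Gfap and of the dim probes of Vim, Glul and Cd44, whose signals lie near the negative controls.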
